A study of Mus musculus with 8 samples.

Results

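Expression of 8 genes of cholesterol synthesis was described in the cortex of 8-mo-old mice of the PS19 tauopathy line with and without the Adrb1-A187V mutation. The genes were chosen by name, as Hmgcs1, Sqle, Insig1, Idi1, Fdft1, Fdps, Lss and Dhcr7, with earlier results of these data known. Each was matched by its gene name to 1 row of the deposited table of raw counts. They were 8 of the 54532 genes in the table, and all 8 were among the 17195 genes that had enough counts to be tested. They include 7 enzymes of the pathway and Insig1, a regulator, and no receptor for cholesterol uptake, so uptake was read from a list of other genes. The 4 control mice carried PS19, a transgene for human tau bearing P301S under the mouse prion promoter. The other 4 mice carried the same transgene together with the Adrb1-A187V mutation, a base change knocked into the gene of the β1-adrenergic receptor, on 1 allele (Adrb1+/m;PS19 in the labels, Adrb1-A187V;PS19 here). All 8 mice were on the C57BL/6 background and were singly housed in a 12:12 light and dark cycle. The study states that its experiments used male mice unless noted otherwise, with littermates as controls. Mice without the tau transgene were not analysed here, so every value below is from a tau mouse.

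Cholesterol does not cross into the brain from the blood in appreciable amounts, and the brain makes its own. Synthesis runs from acetyl-CoA through HMG-CoA and mevalonate to isoprenoid units, which are joined to squalene, closed into lanosterol and trimmed to cholesterol. In the adult brain astrocytes make cholesterol and hand it on in apolipoprotein E particles, neurons make some and take up the rest, and oligodendrocytes use large amounts for myelin. When sterols in the endoplasmic reticulum run low, SCAP carries the transcription factor SREBP-2 to the Golgi, where it is cut and released to switch on the genes of synthesis and uptake. INSIG proteins hold SCAP back when sterols are plentiful, and Insig1 is itself a gene that SREBP switches on. Oxysterols act in the other direction through the LXR receptors, which switch on genes of cholesterol export.

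The letters of the promoters are shown because genes under SREBP control carry a sterol regulatory element, often beside CCAAT (NF-Y) and GC (Sp1) boxes. RefSeq promoter sequences (GRCm38.p6) matched 5 of the 8 genes, Hmgcs1, Insig1, Idi1, Lss and Dhcr7, and the other 3 genes, Sqle, Fdft1 and Fdps, had no entry. The 250 bases before the start site were searched on both strands for TCACNCCAC (the sterol element core), CCAAT and GGGCGG. These searched letters do not overlap each other in the sequences shown. In the printed strand a match to the other strand reads as ATTGG for CCAAT and CCGCCC for GGGCGG. The sequences are written 5′ to 3′ in lower case with the matches in capitals, and each ends at the last base before the gene's start in the deposited table or at the last base before the RefSeq start site, whichever is first.
Hmgcs1, chr13:119690101-119690350, plus strand: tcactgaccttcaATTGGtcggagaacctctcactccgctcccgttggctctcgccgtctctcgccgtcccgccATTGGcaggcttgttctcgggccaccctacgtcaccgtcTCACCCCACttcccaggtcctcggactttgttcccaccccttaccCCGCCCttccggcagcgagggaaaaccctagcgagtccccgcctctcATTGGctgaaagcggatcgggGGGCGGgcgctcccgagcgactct
Insig1, chr5:28071162-28071362, plus strand: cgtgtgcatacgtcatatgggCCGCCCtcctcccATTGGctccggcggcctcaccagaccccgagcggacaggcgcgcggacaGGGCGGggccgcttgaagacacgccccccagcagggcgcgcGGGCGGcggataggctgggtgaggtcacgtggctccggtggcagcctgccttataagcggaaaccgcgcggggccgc
Lss, chr10:76531355-76531587, plus strand: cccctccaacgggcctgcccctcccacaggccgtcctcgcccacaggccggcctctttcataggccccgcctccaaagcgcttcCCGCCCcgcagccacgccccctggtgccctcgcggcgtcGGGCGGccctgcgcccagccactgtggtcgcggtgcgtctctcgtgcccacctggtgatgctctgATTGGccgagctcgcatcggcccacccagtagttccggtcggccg
Dhcr7, chr7:143822917-143823144, plus strand: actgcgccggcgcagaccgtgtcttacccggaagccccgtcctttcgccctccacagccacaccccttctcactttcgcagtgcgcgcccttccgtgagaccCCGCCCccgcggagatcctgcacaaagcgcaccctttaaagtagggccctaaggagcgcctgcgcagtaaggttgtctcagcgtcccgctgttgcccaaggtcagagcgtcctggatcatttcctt
The sterol element core was found in 1 of the 5 promoters, that of Hmgcs1, as TCACCCCAC with its last base 129 bases before the start site, and in 1.05% of all 32851 promoters of the same length. CCAAT was found in 4 of the 5 promoters (33.8% of all promoters) and GGGCGG in 5 of the 5 (32.7% of all). Hmgcs1 had 3 CCAAT and 2 GGGCGG matches, Insig1 had 1 and 3, Lss had 1 and 2, and Dhcr7 had 0 and 1. Idi1 had 2 CCAAT and 1 GGGCGG matches, which lie inside the span that the deposited table gives the gene, so that promoter is not shown. A match is a description of the letters alone. Only 1 pattern for the sterol element was searched, in 250 bases, so a promoter without a match is not shown to lack the element.

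In the deposited table Hmgcs1 (ENSMUSG00000093930) lies on chromosome 13 from 119690379 to 119708260 and Idi1 (ENSMUSG00000058258) on chromosome 13 from 8885501 to 8892451, both on the plus strand of GRCm38. Fdps (ENSMUSG00000059743) lies on chromosome 3 from 89093588 to 89101959 and Fdft1 (ENSMUSG00000021273) on chromosome 14 from 63145150 to 63179578, both on the minus strand. Sqle (ENSMUSG00000022351) lies on chromosome 15 from 59315077 to 59331192, Lss (ENSMUSG00000033105) on chromosome 10 from 76531588 to 76557138 and Dhcr7 (ENSMUSG00000058454) on chromosome 7 from 143823145 to 143848410, all on the plus strand. Insig1 (ENSMUSG00000045294) lies on chromosome 5 from 28071363 to 28078662 on the plus strand. The gene lengths in the table equal the summed exon bases of GENCODE vM21 for all 8 genes, so the counts were taken over exons, untranslated parts included. Fdps shares 1124 of its 4208 exon bases (26.7%) with Gm43738, a gene on the same strand with 0 counts in every mouse, and the shared bases make up 76.4% and 81.3% of the 2 principal Fdps transcripts. Fdft1 shares 774 exon bases (18.3%) with Ctsb on the other strand, which had 8002 to 12015 counts. How reads in shared bases were counted is not given in the sources used here, so the counts of Fdps and Fdft1 are uncertain.

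Each mouse gave 1 library, with 14653222 to 21223754 counts in the PS19 mice and 16865651 to 20802158 in the Adrb1-A187V;PS19 mice. Within a genotype, libraries differed beyond counting noise (chi-square per degree of freedom of 4.87 to 10.2), and no library was a copy of another. The table holds no row for the human transgene, and counts per gene cannot show the Adrb1 base change, so neither label could be checked in these data. The first principal component over all genes tested held 21.9% of the variance and divided the mice across genotypes. PS19 mice m668 and m665 and Adrb1-A187V;PS19 mice m671 and m661 had positive scores (8.75 to 23.1), and the other 4 had negative ones (-16.8 to -15.0). The share of counts on the mitochondrial chromosome was 4.58% to 5.31%. Levels are given as normalized counts scaled to library size (CPM), with edgeR's TMM factors of 0.990 to 1.01.

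Hmgcs1 had the highest level of the 8 genes and Fdps the lowest, by counts that are uncertain for Fdps because of its shared bases. Per kilobase of exon, mean CPM over the 8 mice was 45.5 ± 6.51 for Hmgcs1, 25.1 ± 4.51 for Insig1, 19.1 ± 1.69 for Fdft1, 11.0 ± 1.24 for Sqle, 6.52 ± 1.32 for Idi1, 5.63 ± 0.539 for Dhcr7, 3.86 ± 0.511 for Lss and 0.304 ± 0.0955 for Fdps (SD, n = 8). The ranges over mice of Insig1 (19.9 to 30.7) and Fdft1 (16.9 to 21.3) overlapped, as did those of Idi1 (4.80 to 8.23) and Dhcr7 (4.88 to 6.57), so these neighbours in the order were not separated. The lowest mouse for Dhcr7 stood just above the highest for Lss (4.82). The other neighbours did not overlap.

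Hmgcs1 encodes the synthase that makes HMG-CoA, an early step of the pathway. Its level was 179, 226, 255 and 186 CPM in PS19 mice m677, m668, m665 and m659, and 226, 235, 182 and 183 CPM in Adrb1-A187V;PS19 mice m671, m661, m660 and m658. The values fell into a high and a low set of 4 mice each, with 2 mice of each genotype in each set, and the genotypes overlapped. In all lists of values below the mice are in this same order, PS19 first.

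Idi1 encodes the isomerase that balances the isoprenoid units. It had 16.8, 27.9, 28.8 and 18.0 CPM in PS19 mice and 27.2, 22.2, 19.9 and 21.8 CPM in Adrb1-A187V;PS19 mice. The PS19 mice held both the lowest and the highest values, and the genotypes overlapped. Fdps, which builds farnesyl diphosphate, had 1.96, 0.759, 1.60 and 0.903 CPM in PS19 mice and 1.26, 1.48, 0.952 and 1.30 CPM in Adrb1-A187V;PS19 mice. These levels rest on 11 to 34 counts per mouse, and the Adrb1-A187V;PS19 mice lay within the range of the PS19 mice.

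Fdft1 encodes squalene synthase, the first enzyme that commits the pathway to sterols. Its level was 79.6, 85.2, 90.1 and 71.3 CPM in PS19 mice and 83.9, 88.4, 75.0 and 73.1 CPM in Adrb1-A187V;PS19 mice. Sqle encodes squalene epoxidase, a second control point of the pathway. It had 60.8, 68.2, 69.6 and 51.8 CPM in PS19 mice and 65.7, 62.6, 55.1 and 53.3 CPM in Adrb1-A187V;PS19 mice. For both genes m665 was highest and m659 lowest, so both extremes were PS19 mice.

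Lss encodes lanosterol synthase, which closes the sterol rings. It had 42.6, 40.2, 52.0 and 34.3 CPM in PS19 mice and 43.4, 44.7, 40.7 and 35.6 CPM in Adrb1-A187V;PS19 mice. Dhcr7 encodes the reductase that acts on 7-dehydrocholesterol at the end of the pathway. Its level was 32.3, 35.5, 38.2 and 28.4 CPM in PS19 mice and 33.9, 32.0, 31.7 and 29.8 CPM in Adrb1-A187V;PS19 mice. For both enzymes the PS19 mice spanned the values of the Adrb1-A187V;PS19 mice. Insig1, the sterol-sensing brake, had 63.6, 89.6, 94.9 and 63.6 CPM in PS19 mice and 85.4, 90.3, 71.3 and 61.5 CPM in Adrb1-A187V;PS19 mice. Its pattern was that of Hmgcs1, with m668, m665, m671 and m661 highest.

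**Figure D1:**
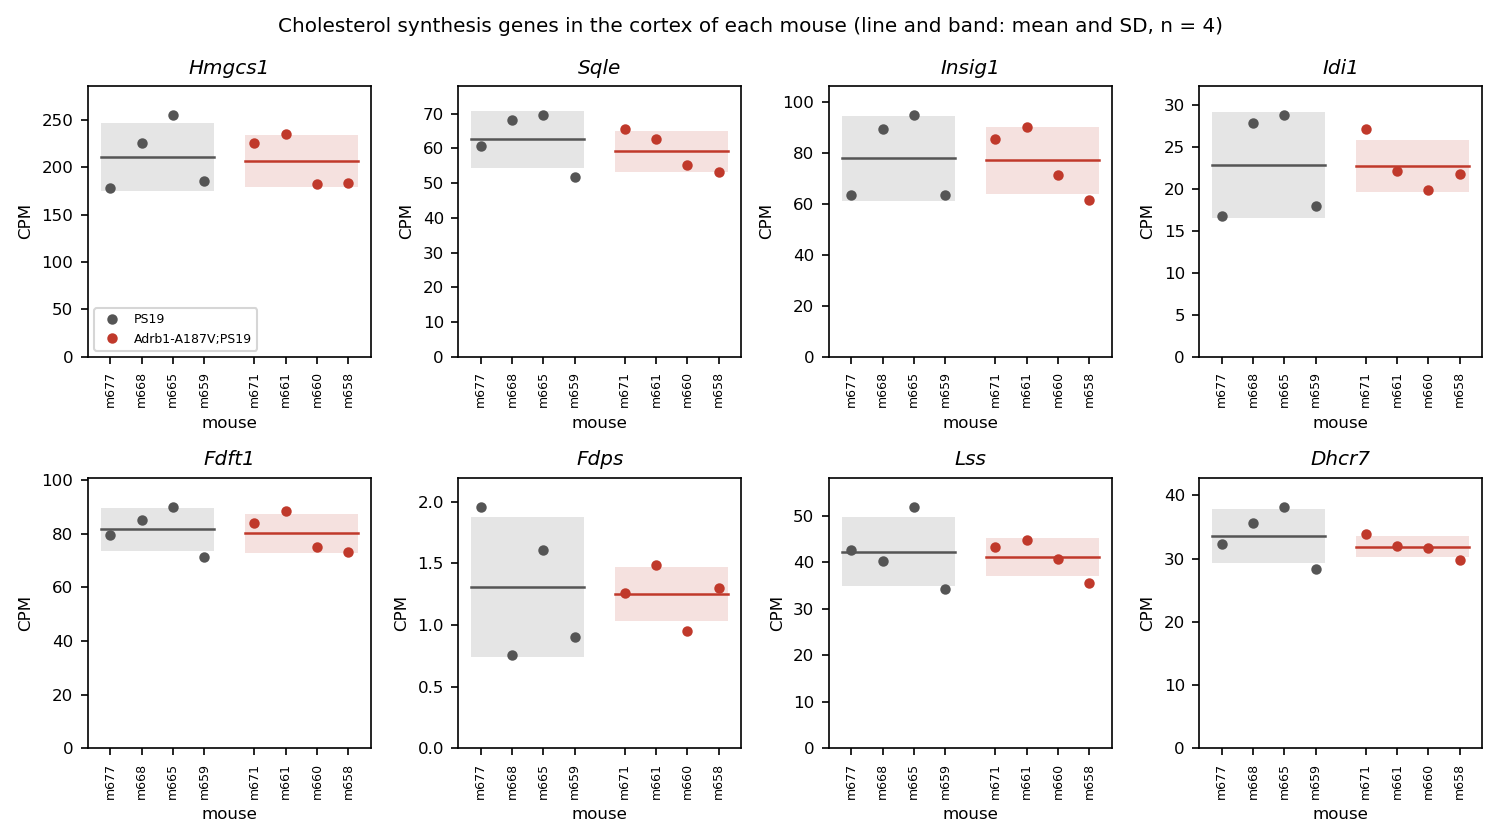
Level of each of the 8 genes (CPM, linear axis from 0) in each mouse, PS19 in grey and Adrb1-A187V;PS19 in red, with the genotype mean as a line and the SD as a band (n = 4). The genotypes overlap in all 8 panels, and m665 is highest in all but Fdps.

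The first comparison asked whether the Adrb1-A187V mutation went with a difference in these genes in tau mice. No gene of the 8 passed the test between genotypes. The log2 fold change in Adrb1-A187V;PS19 vs. PS19 mice was -0.03 ± 0.11 (SE) for Hmgcs1, -0.08 ± 0.09 for Sqle, -0.02 ± 0.14 for Insig1, -0.01 ± 0.16 for Idi1, -0.03 ± 0.08 for Fdft1, -0.08 ± 0.33 for Fdps, -0.04 ± 0.11 for Lss and -0.08 ± 0.09 for Dhcr7. Mean levels were close: Hmgcs1, for instance, had 211 ± 36.0 CPM in PS19 and 207 ± 27.9 CPM in Adrb1-A187V;PS19 mice, and Sqle had 62.6 ± 8.18 and 59.2 ± 5.92 CPM (SD, n = 4 each). Unadjusted p-values from edgeR's quasi-likelihood test were 0.393 (Dhcr7) to 0.947 (Idi1), and the adjusted p was 0.9996 for each gene. The count under an unadjusted p of 0.05 was thus 0 of 8, where 2.80% of all genes tested were under it. No gene of the table had an adjusted p under 0.05 (0%). The count was also 0 of 8 with DESeq2's Wald test (1.65% of all genes it tested) and with limma-voom (2.86% of all). None of the 8 genes had genotypes that did not overlap (2.02% of all genes tested).

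All 8 log2 fold changes were below 0, with a median of -0.04 beside 0.00046 for all genes tested, and each was smaller than its SE. The direction was not stable. Without m665, 6 of the 8 (Hmgcs1, Insig1, Idi1, Fdft1, Fdps and Lss) were above 0, with Hmgcs1 at 0.07, Insig1 at 0.10 and Idi1 at 0.13. The 95% interval was narrowest for Fdft1 (-0.20 to 0.15) and wide for Idi1 (-0.36 to 0.34). With 11 to 34 counts per mouse, Fdps had an interval of -0.78 to 0.63, and changes within it were not detectable with these counts.

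**Figure D2:**
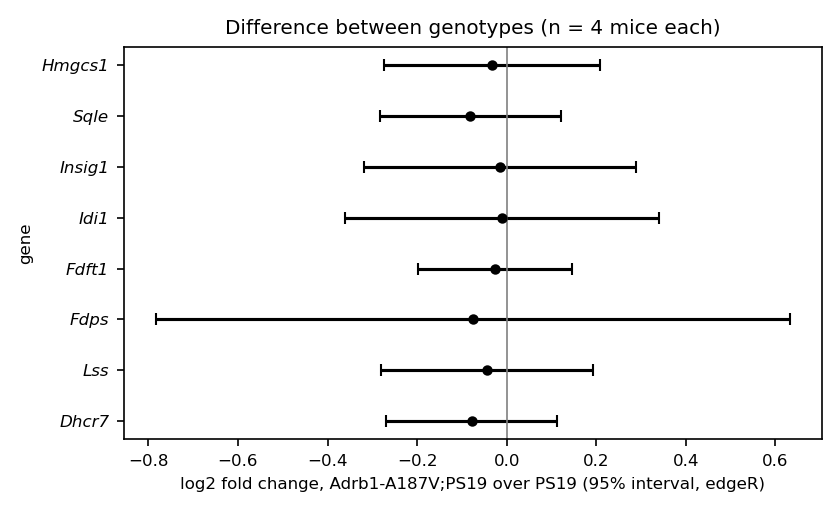
Log2 fold change of each gene in Adrb1-A187V;PS19 over PS19 mice (points) with its 95% interval from edgeR's quasi-likelihood fit (bars). All 8 intervals include 0, and the widest is that of Fdps (-0.78 to 0.63).

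The rest of the pathway was read from lists of 64 other genes, of which 63 were tested (Ch25h had too few counts). Of these 63, none had an adjusted p under 0.05. Only 1 had an unadjusted p under 0.05 in edgeR's test, beside 2.80% of all genes tested. That gene was Vldlr, the VLDL receptor, which takes up apolipoprotein E particles and also binds reelin. It had 88.5, 103, 92.9 and 84.0 CPM in PS19 mice and 98.1, 104, 101 and 111 CPM in Adrb1-A187V;PS19 mice. The log2 fold change was 0.17 ± 0.07, with an adjusted p of 0.9996 and an unadjusted p of 0.0281 from edgeR's quasi-likelihood test, and the genotypes overlapped through m668. The unadjusted call was lost without m677 (log2 fold change 0.15), without m659 (0.12) or without m658 (0.13). Median log2 fold changes of the lists lay near that of all genes. The 15 other synthesis enzymes had a median of -0.03 with 5 positive and 10 negative values. The 9 genes listed under SREBP control, Ubxn8 included, had a median of 0.02 with 5 positive and 4 negative. The 12 uptake and trafficking genes had a median of 0.01 (7 positive, 5 negative), and the 10 genes of efflux, esterification and oxysterols had a median of -0.03 (3 positive, 7 negative). The 10 genes of fatty acid synthesis had a median of -0.02 (4 positive, 6 negative), and the 7 genes of other branches from mevalonate had -0.006 (3 positive, 4 negative).

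By name, Srebf2, which encodes SREBP-2, had a log2 fold change of -0.08 ± 0.05. Insig2, the second INSIG gene, had 0.10 ± 0.06, and without m665 its unadjusted p was 0.0392 (edgeR, log2 fold change 0.14). On the export side, Apoe had -0.02 ± 0.14 and the cholesterol exporter Abca1 had 0.11 ± 0.13. None of these 4 passed the unadjusted threshold in edgeR's test over all 8 mice.

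The levels varied between mice by more than counting error. The coefficient of variation over the 8 mice was 14.3% for Hmgcs1, where counting alone gives 1.67%. It was 18.0% for Insig1 (counting 2.77%), 20.2% for Idi1 (5.11%), 13.2% for Lss (3.75%), 11.3% for Sqle (3.09%), 9.57% for Dhcr7 (4.20%) and 8.82% for Fdft1 (2.68%). For Fdps most of the spread was within reach of counting, with 31.4% against 22.4%. The highest mouse had 1.26 times (Fdft1) to 1.71 times (Idi1) the level of the lowest, and 2.58 times for Fdps. Among all genes tested the dispersion of 7 of the 8 genes was ordinary, at a percentile between 38.1 (Fdft1) and 69.9 (Idi1), and that of Fdps was at percentile 89.1.

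The same mice were high for most of the 8 genes. PS19 mice m668 and m665 and Adrb1-A187V;PS19 mice m671 and m661 were the 4 highest for Hmgcs1, Sqle, Insig1, Idi1 and Fdft1. They were 3 of the 4 highest for Lss and Dhcr7 and 2 of the 4 for Fdps. m665 had the highest level of 7 genes, the exception being Fdps, for which m677 was highest. These are also the 4 mice with a positive score on the first principal component of all genes. The mean over the 8 genes of the log2 CPM, each gene centred on its mean over mice, was 0.28 in m665, 0.12 in m661, 0.11 in m671, 0.05 in m668, -0.03 in m677, -0.14 in m660 and m658 and -0.25 in m659. Both ends of this range were PS19 mice. m665 and m661, the 2 highest in the mean over the 8 genes, had the most counts (21223754 and 20802158), while m668 had the fewest. The r of log2 CPM with log2 total counts was positive for all 8 genes, from 0.13 (Sqle) to 0.57 (Lss). For the genes other than Hmgcs1, the r with the mitochondrial share of counts ran from -0.50 (Insig1) to 0.45 (Fdps). It was -0.35 for Fdft1 and 0.0006 for Lss. The part of depth or of the mitochondrial share in these levels was not tested.

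Pairs of these genes were then compared across the 8 mice by Pearson's r and Spearman's rho of log2 CPM, each with a 2-sided exact permutation test over all 40320 pairings and Benjamini-Hochberg adjustment over the 28 pairs. For the 7 pairs with Hmgcs1 no r is given, because its values fell into separate sets of mice (226 to 255 CPM and 179 to 186 CPM), and within a set of 4 mice the relation could not be tested. In the other 21 pairs the median r was 0.78, and 12 had an adjusted p under 0.05 by r and 5 by rho. The 15 pairs among Sqle, Insig1, Idi1, Fdft1, Lss and Dhcr7 had r from 0.52 to 0.94 with a median of 0.83, and all 12 of the passing pairs were among them. The 6 pairs with Fdps had r from -0.16 to 0.54, and none passed. How often pairs of other genes pass in these mice was not computed. The counts of passing pairs thus have no background beside them and do not set these genes apart from others. Genes measured in the same library share its depth and composition, which such an r includes. The genes were also chosen with earlier results of these data known. The permutation p-values here and below do not allow for that choice.

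Sqle and Dhcr7, an early and a late sterol enzyme, had r = 0.94 (exact permutation p = 0.000298, adjusted p = 0.00833) and rho = 0.98 (exact p = 0.000397, adjusted p = 0.0111). Without the 2 mice farthest from the median of Sqle the r was 0.85. Sqle and Fdft1, which act on squalene one after the other, had r = 0.94 (exact permutation p = 0.00166, adjusted p = 0.0233) and rho = 0.93 (exact p = 0.00223, adjusted p = 0.0312), and r = 0.86 without the 2 farthest mice. Insig1, the regulator, and Fdft1 had r = 0.92 (exact permutation p = 0.00588, adjusted p = 0.0274), rho = 0.88 (exact p = 0.00724, adjusted p = 0.05) and r = 0.99 without the 2 farthest mice. Among the pairs without Fdps, Idi1 and Lss were least alike, with r = 0.52 (exact permutation p = 0.188, adjusted p = 0.239), rho = 0.50 (exact p = 0.216, adjusted p = 0.275) and r = 0.55 without the 2 farthest mice. Over those 15 pairs, r without the 2 farthest mice was 0.47 to 0.99 with a median of 0.81.

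Taken on deviations from the genotype means, the 15 pairs had r from 0.53 to 0.95 with a median of 0.84. With mice exchanged only within genotypes (576 pairings), 1 pair, Sqle and Dhcr7, passed with r = 0.93 and an exact permutation adjusted p of 0.0486. That design has a smallest p of 0.00174. With mice left out in turn, in tests that then had 7 mice, the median r of the 21 pairs was 0.70 (without m665) to 0.85 (without m677). The count of passing pairs moved more. Of 21 pairs it was 1 without m665, 3 without m659, 3 without m671, 5 without m658 and 6 without m660, and it was 12 without m677, 9 without m668 and 10 without m661.

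**Figure D3:**
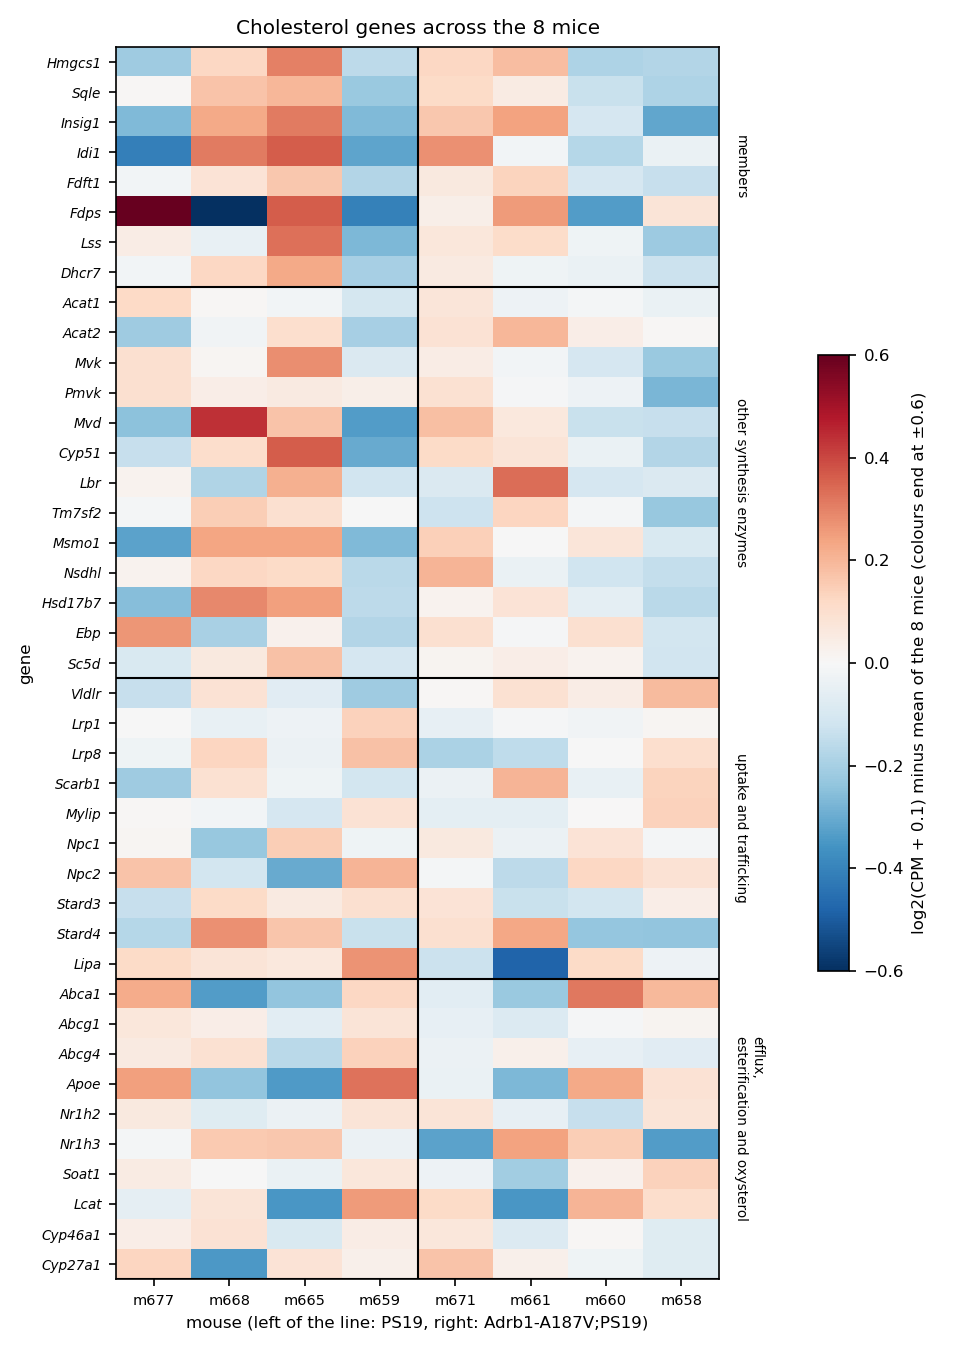
Each row is a gene and each column a mouse, and the colour gives log2(CPM + 0.1) after subtraction of the row mean (red above, blue below, colours end at 0.6 either side). Among the 8 genes at the top, m665 is red in every row and m659 blue in every row, and both are PS19 mice, while Apoe, Npc2 and Abca1 lower down are blue in m665 and red in m659.

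Other genes of the pathway were set beside the mean of the 8 genes by their r over the 8 mice, as a description without a test. All 15 other synthesis enzymes had a positive r, with a median of 0.71, and 8 of the 15 (53.3%) were over 0.7, where 4.26% of the 17187 other genes tested were. Cyp51, the sterol demethylase, had r = 0.95 (rho 0.90) and ranked 10th of all 17195 genes tested, the 8 genes of the mean included. Its level was 63.3, 75.1, 89.8 and 56.4 CPM in PS19 mice and 75.5, 73.5, 67.7 and 61.6 CPM in Adrb1-A187V;PS19 mice. Highest and lowest were again m665 and m659. Sc5d, a late sterol desaturase, had r = 0.84. Ebp, the sterol isomerase, had 0.24 and Acat1, a mitochondrial thiolase, 0.36, while Acat2, another thiolase of the list, had 0.63. Without m665 and m659, the 2 mice farthest from the median of the mean, the median r of this list was 0.57 and 14 of 15 were positive. With the mean taken without Fdps it was 0.82.

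The uptake and trafficking genes were mixed. Stard4, a carrier of cholesterol in the cytosol, had r = 0.77. Mylip, a ubiquitin ligase that sends lipoprotein receptors to degradation, had r = -0.88 (rho -0.95), and Npc2, which unloads cholesterol in lysosomes, had -0.91 (rho -0.88). Mylip spanned 15.5 to 18.3 CPM over the mice, so its difference was small. Vldlr had r = 0.13. Over the 12 genes the median was near that of all genes (-0.002 against 0.02), with 6 positive and 6 negative, and it was -0.24 without m665 and m659.

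Among the genes of SREBP control the median r was 0.32, with 6 of 9 positive (0.43 without m665 and m659). Srebf2 had r = 0.50, and Insig2 had 0.32. The list also holds Ubxn8, for which no source used here gives a part in SREBP control. Its r of 0.77 was the highest of the list and enters the counts and medians given for it. Srebf1, which encodes the SREBP that serves fatty acid synthesis, had r = -0.75 (rho -0.81). Scap had -0.52, but 0.91 without m665 and m659, so its value rests on those mice.

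Genes of export and turnover leaned to the other side. Of 10 genes tested 8 had a negative r, with a median of -0.59. Apoe had r = -0.88 (rho -0.88), with 2047, 1466, 1362 and 2166 CPM in PS19 mice and 1682, 1431, 2022 and 1831 CPM in Adrb1-A187V;PS19 mice. The 4 mice that were high for Hmgcs1 were the 4 lowest for Apoe. Lcat, which esterifies cholesterol on particles, had r = -0.80 and Abca1 had -0.75. Cyp46a1, the neuronal 24-hydroxylase by which the brain clears cholesterol, had -0.31. The LXR receptor gene Nr1h3 (0.30) and Cyp27a1, a sterol 27-hydroxylase (0.16), were the positive ones. Without m665 and m659 the median was -0.20 and 5 of 10 were positive, so the lean of this list as a whole rests on those mice, while Apoe kept -0.75 and Abca1 -0.82.

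In fatty acid synthesis, which the SREBP factors also serve, the median r was 0.13, and -0.01 without m665 and m659. Acss2, which makes acetyl-CoA from acetate, had r = 0.88 (rho 0.95) and the desaturase gene Fads1 had 0.55. Its neighbour in function Fads2 had -0.75 and the elongase gene Elovl6 -0.47. Among the other branches from mevalonate, which lead to ubiquinone, dolichol and prenylated proteins, Pdss2 had r = 0.78 and Nus1 0.25, Dhdds had -0.16 and Fntb -0.64. In all, 3 of the 7 genes of these branches had a positive r.

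**Figure D4:**
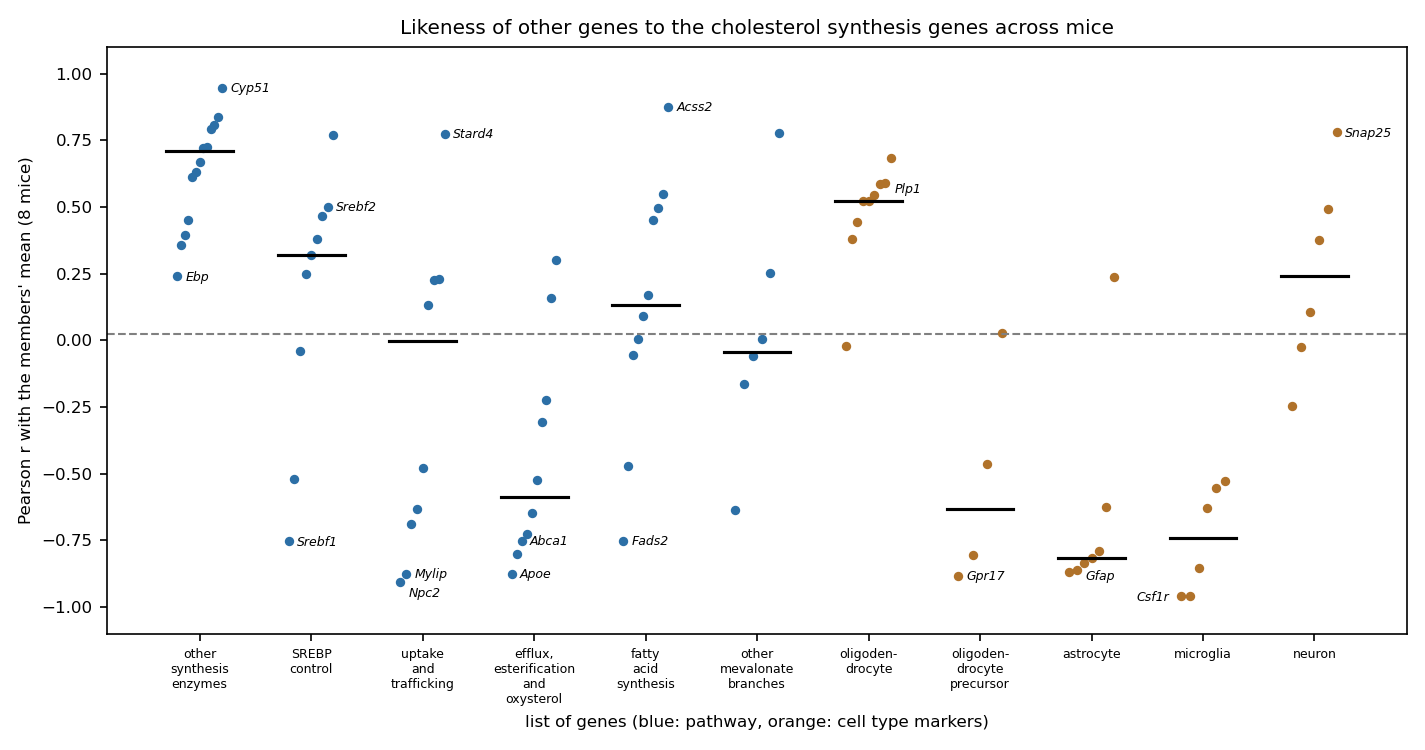
Pearson r of each gene with the mean of the 8 genes over the 8 mice, by list (blue, pathway genes; orange, cell type markers), with the list median as a bar and the median of all genes tested, 0.02, as a dashed line. The other synthesis enzymes have a median of 0.71 and the microglial markers one of -0.74; the medians cover every gene tested in a list, and not every gene is drawn (Stard3 and Pdss1, for instance, whose values fell into separate sets of mice).

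Over 10178 protein-coding genes with a mean of at least 10 CPM, the 8 most like the mean of the cholesterol genes were Kcnk4 (r = 0.97, rho 0.95), a potassium channel gene, Tmem97 (0.96, rho 0.90), which encodes the sigma-2 receptor and takes part in sterol transport, Dcaf10 (0.95), Sun1 (0.95), Cyp51 (0.95), Ambra1 (0.95), Tbc1d14 (0.94) and Arhgef10l (0.94). Tmem97 spanned 10.6 to 14.7 CPM and Kcnk4 11.1 to 16.1 CPM over the mice. The 4 least alike were Csf1r (-0.96, rho -0.95), the receptor on which microglia depend, Pdia3 (-0.96), H2-D1 (-0.96), a gene of antigen presentation, and Cx3cr1 (-0.96, rho -0.90), the microglial fractalkine receptor. Csf1r had 118, 101, 86.3 and 142 CPM in PS19 mice and 106, 91.4, 137 and 136 CPM in Adrb1-A187V;PS19 mice. Thus m659, lowest in the mean of the cholesterol genes, was highest in Csf1r, and m665 the reverse. Its log2 fold change between genotypes was 0.07 and that of Cx3cr1 0.03.

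Markers of the cell types of the cortex and of neighbouring regions were set beside the 8 genes. In bulk tissue, fewer cells of a type and less RNA per cell cannot be told apart. All 6 microglial markers had a negative r with the mean of the 8 genes (median -0.74). Their summed level was 366, 283, 251 and 426 CPM in PS19 mice and 307, 248, 399 and 393 CPM in Adrb1-A187V;PS19 mice. This sum was lowest in the 4 mice with high Hmgcs1 and highest in m659, with r = -0.93 and rho = -0.93. Of the 7 astrocyte markers 6 had a negative r (median -0.82), the exception being Aldh1l1 (0.24). Their sum fell into separate sets of mice, from 5015 to 5165 CPM in m668, m665, m671 and m661 and from 5796 to 6102 CPM in the other 4, so no r is given. Gfap, the astrocyte filament gene, was divided in the same way. It had 748, 257, 220 and 827 CPM in PS19 mice and 354, 182, 838 and 752 CPM in Adrb1-A187V;PS19 mice.

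Of the 9 oligodendrocyte markers 8 had a positive r (median 0.52). Their sum was 6714, 5119, 6879 and 5369 CPM in PS19 mice and 6397, 5812, 6163 and 5359 CPM in Adrb1-A187V;PS19 mice, with r = 0.53, and 0.33 with the mean taken without Fdps. m668, among the 4 highest mice for Hmgcs1, had the lowest sum, so the oligodendrocyte markers did not follow the same division of mice. Without m665 and m659 the median r of these markers was 0.15, so the likeness of this list rests on those mice. The 4 precursor markers had a median r of -0.63 (3 negative), and the 6 neuronal markers one of 0.24 (4 positive), with sums of 5533 to 6208 CPM in PS19 and 5420 to 6070 CPM in Adrb1-A187V;PS19 mice. Median r was 0.07 for 6 cortical layer markers, -0.02 for 4 endothelial, -0.37 for 4 choroid plexus, 0.22 for 6 striatal and -0.20 for 5 basal forebrain cholinergic markers. No marker of any list was at 0 in any mouse. Without m665 and m659 the median r was -0.66 for the microglial, -0.76 for the astrocyte, -0.66 for the precursor and 0.69 for the neuronal markers. It was 0.30 for the cortical layer, -0.51 for the endothelial, -0.47 for the choroid plexus, -0.03 for the striatal and 0.15 for the basal forebrain cholinergic markers. The part of these cell type markers in the likeness of the cholesterol genes was not tested.

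By genotype, the glial marker lists had 0 genes with an unadjusted p under 0.05 in edgeR's test (9 oligodendrocyte, 4 precursor, 7 astrocyte and 6 microglial genes) and median log2 fold changes of -0.02, 0.02, 0.03 and 0.002. All 5 basal forebrain cholinergic markers were higher in Adrb1-A187V;PS19 mice at an unadjusted p under 0.05 (median 0.69), with none under an adjusted 0.05. Their sum did not overlap (14.1 to 26.0 CPM in PS19 and 28.5 to 38.7 CPM in Adrb1-A187V;PS19 mice). Singly, Lhx8 did not overlap, while Chat, Slc5a7, Ngfr and Gbx1 did. Over all genes tested, 2.80% were under that unadjusted p and 2.02% had genotypes that did not overlap. This list was chosen with earlier results of these data known. Gad2 was higher (0.24) and Slc17a7 lower (-0.19) among the 6 neuronal markers, and Neurod6 was lower (-0.27) among the 6 cortical layer markers, each at an unadjusted p under 0.05 in edgeR's test. The 6 striatal and 4 choroid plexus markers were all above 0 (medians 0.33 and 0.53) and the 4 endothelial ones had a median of -0.03, with 0 of each at that threshold. Choroid plexus sums ranged from 20.1 to 552 CPM over the mice. The part of these regional markers in the genotype values of the 8 genes was not tested.

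**Figure D5:**
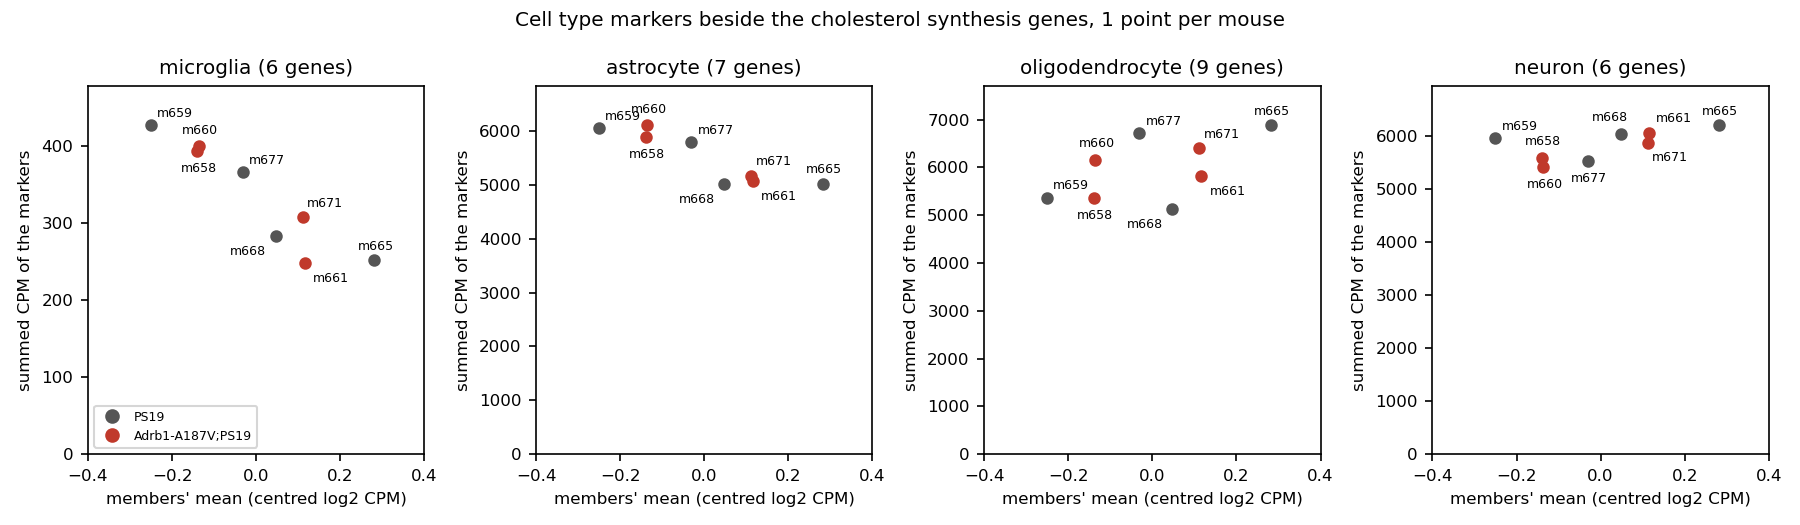
Summed CPM of the markers of 4 cell types (vertical axes from 0) against the mean centred log2 CPM of the 8 cholesterol genes, with 1 point per mouse, PS19 in grey and Adrb1-A187V;PS19 in red. The microglial sum runs from 426 CPM in m659 down to 251 CPM in m665 and 248 CPM in m661, and mice of both genotypes lie along the whole range.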

How the data were processed

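Cortical RNA of 8 mice was sequenced with paired-end reads, 1 library per mouse, and the groups were taken from the labels. The authors aligned reads to GRCm38 with HISAT2 2.0.5 and deposited raw counts per gene made with featureCounts 1.5.0-p3, without normalization. Strand and multiple-mapping settings are not given in the sources used here. The gene length column of the deposited table served only for levels per kilobase.

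Genes were kept by edgeR 4.0.16's filterByExpr (17195 of 54532), scaled by TMM, and tested for genotype with its 2-sided quasi-likelihood test without covariates (R 4.3.3). Adjusted p-values are Benjamini-Hochberg values across the whole set of genes tested. The selection used for calls was an unadjusted p under 0.05, as in the study. The SE is the log2 fold change divided by the square root of F. Log2 CPM used a prior count of 2. Correlations were computed in Python 3.11.15. A gene's mice were taken as separate sets where the widest gap with at least 2 mice on each side exceeded 0.5 of the range. Alternatives were DESeq2 1.42.0, limma 3.58.1's voom, DESeq2 size factors, other count filters, a prior count of 0.5, and omission of single mice. The scripts were tested on simulated counts.

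The genes, the lists and the rule for named genes were chosen with earlier results of these data known. The rule names the 8 genes, pathway genes with an unadjusted p under 0.05, the 2 highest and 2 lowest by r in each pathway list, a fixed set of genes, some of which are not reported here, and the 8 most and 4 least alike genes with a mean of at least 10 CPM. Other genes named, such as Lipa, Lrp8, Acat2 and single markers, were chosen after their values were seen. Labels give no litter, sex or batch, so none entered a model. Where nothing says that samples came from separate litters or dissections, p-values measure the spread between these mice alone.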

Additional observations from a re-analysis of the deposited data

How the results depend on the processing

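The count of the 8 genes with an unadjusted p under 0.05 was 0 under every alternative run. For the 63 other pathway genes the count was 1 and became 2 with DESeq2 size factors in edgeR, with no filter beyond 1 count and with limma-voom, where Lipa joined Vldlr. It ranged from 0 to 3 with mice left out in turn: 0 without m677 or m659, 3 without m665 (Vldlr, Acat2 and Insig2), and 2 without m660 (Vldlr and Lipa) or m658 (Lrp8 and Lipa). With limma-voom the log2 fold change of Idi1 was 0.00985 and that of Apoe 0.00258, both near 0 on the other side. With mice left out in turn, the log2 fold change ranged from -0.10 to 0.0728 for Hmgcs1, -0.10 to 0.10 for Insig1, -0.13 to 0.13 for Idi1, -0.0852 to 0.0277 for Fdft1, -0.25 to 0.17 for Fdps, -0.13 to 0.0754 for Lss and -0.12 to 0.10 for Apoe. Sqle, Dhcr7, Vldlr, Srebf2, Insig2 and Abca1 kept their direction without each mouse. The 12 pairs of genes with an adjusted p under 0.05 became 1 on deviations from the genotype means, where fewer pairings are possible, and 5 with Spearman's rho, and ranged from 1 to 12 with mice left out, while the median r of the pairs stayed between 0.70 and 0.85. The median coefficient of variation was 11.5% to 14.7% with mice left out. The median r of the other synthesis enzymes was 0.60 to 0.79 with mice left out, and 0.82 with the mean taken without Fdps, an alternative chosen after seeing the data. Beyond what these constructions show, the cause of each change was not tested. No paired analysis was possible because mice carry individual numbers and no litter is given. Few counts limit Fdps, with 11 to 34 per mouse. How reads in the bases it shares with Gm43738 were counted is not given.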
